A study of Mus musculus with 17 samples.

Results

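Synaptic adhesion and scaffold genes encode the proteins that hold the 2 sides of a synapse together and anchor its machinery. Kirrel2, Kirrel3, Lrrtm2, Nlgn2, Syndig1, Cadm1, Ncam1, Cttnbp2 and Ntrk2 are 9 of the 55357 genes in the files. They were chosen by their differences between groups in an earlier look at these same samples, so all 5 comparisons of their expression are given here as a description, and no p-value is given for them. The genes were found by symbol, and the estimated counts of all their transcripts were summed. All 9 passed the filter on low counts, as did 22784 genes in all.

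The study asked what the RNA-binding protein PCBP2 does to gene expression in pancreatic β cells kept in low or high glucose. Islets of male mice on a C57BL/6 background were rested in 11 mM glucose for 3 days and then held for 72 h at a low (2.8 mM) or a high (16.7 mM) glucose concentration, after which live β cells carrying the red reporter tdTomato were sorted and their polyA RNA was sequenced as 150-nt read pairs from an ultra low input kit. Control mice, which the labels call WT, carried a Cre transgene under the rat insulin promoter (RIP-Cre) and a Cre-inducible tdTomato reporter, with no floxed Pcbp2. Pcbp2βKO mice carried the same Cre and reporter together with floxed Pcbp2 on both chromosomes (Pcbp2 fl/fl), so the effect of Cre or of the reporter by itself is shared by all groups. There were 3 control samples at 2.8 mM, 4 control samples at 16.7 mM and 5 Pcbp2βKO samples at each concentration, 17 in all. The labels do not say whether a replicate is 1 mouse or a pool, so standard errors and p-values measure the spread between samples.

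The total estimated count per sample was between 70712840 and 78719001 in control samples at 2.8 mM, 65070242 and 69201359 in control samples at 16.7 mM, 47385513 and 82419400 in Pcbp2βKO samples at 2.8 mM, and 73336033 and 81769111 in Pcbp2βKO samples at 16.7 mM. Levels are given as CPM, the share of a gene in the counts of its library, scaled by edgeR's TMM factors, which set aside the share of reads taken by a few very abundant genes. Levels of different genes are compared only in TPM, which allow for transcript length. A gene is named called where edgeR's quasi-likelihood test gave a Benjamini-Hochberg adjusted p below 0.05 over all genes tested and the fold change was over 1.5.

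Cell adhesion molecules of the immunoglobulin family, leucine-rich repeat proteins and neuroligins reach across the synaptic cleft, where many of them bind neurexins or one another. Scaffold proteins underneath link receptors to the actin cytoskeleton. β Cells express much of this neuronal machinery, and adhesion proteins of these families, neuroligins and NCAM among them, are known for roles in contacts between islet cells and in insulin secretion.

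Along the first principal component of all tested genes, which held 30.0% of the variance, 3 libraries at 16.7 mM stood apart from their groups. Control replicate 4 lay at 9.87 against 97.1 to 99.1 for the other 3 control samples at 16.7 mM, and Pcbp2βKO replicates 4 and 5 lay at 21.4 and 33.2 against 90.9 to 95.9 for the other 3. The samples at 2.8 mM lay between −105 and −42.4. The summed CPM of the pancreatic polypeptide markers Ppy and Pyy was 999 in that control sample against 368 to 516 in the other 3, and 1295 and 1456 in the Pcbp2βKO samples against 470 to 730. Results are given with all samples, followed by their values without these 3 libraries where a call changes.

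Pcbp2, the targeted gene, had 63.4, 73.4 and 50.7 CPM in the control samples at 2.8 mM, 35.0, 45.4, 44.4 and 36.7 in those at 16.7 mM, 19.2, 17.5, 16.8, 15.5 and 18.2 in Pcbp2βKO samples at 2.8 mM, and 10.03, 5.81, 6.39, 8.48 and 7.61 in Pcbp2βKO samples at 16.7 mM. Every Pcbp2βKO sample was below every control sample, as its label requires. The log2 fold change was −1.84 (SE 0.17, edgeR adjusted p 3.61e-06) at 2.8 mM and −2.40 (SE 0.16, edgeR adjusted p 7.55e-08) at 16.7 mM. Counts were summed over the whole gene, and reads from the floxed exons were not separated from the rest.

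The labelled cell type was checked against its markers. The summed CPM of 10 β cell genes, led by Ins2 at 40433 to 341515 CPM, averaged 120508, 405165, 79799 and 413109 in control samples at 2.8 mM, control samples at 16.7 mM, Pcbp2βKO samples at 2.8 mM and Pcbp2βKO samples at 16.7 mM. Hormones of other islet cells were present too. Gcg of α cells had 172 to 9159 CPM, Sst of δ cells 72.0 to 934 and Ppy 224 to 5112. The 6 α cell markers together averaged 1550, 850, 4930 and 1050 CPM in the same order of groups, with Irx1 under 1 CPM in every sample. The 3 δ cell markers averaged 341, 235, 865 and 383, and the 2 pancreatic polypeptide markers 1160, 594, 3408 and 906. These 3 lists were highest in the Pcbp2βKO samples at 2.8 mM, although none of their genes was called in either knockout comparison by edgeR. At 2.8 mM, however, 2 of the 10 β cell genes were called lower in Pcbp2βKO than in control cells. With glucose in Pcbp2βKO cells 8 of these 10 were called higher, while 2 of the 5 α cell markers tested (with 1 other called higher), 2 of the 3 δ cell markers and both pancreatic polypeptide markers were called lower. With glucose in control cells 6 of the 10 β cell genes and 1 α cell marker were called higher, 1 δ cell marker was called lower, and Ppy and Pyy were not called.

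Cells that carry synaptic proteins for other reasons were checked in the same way. Of the neuronal markers, Prph was under 1 CPM in every sample, Chat and Rbfox3 reached 2.78 and 1.44, and Th had 16.4 to 72.0 CPM. The list averaged 26.2, 33.5, 34.7 and 60.6 CPM in the order of groups above, and 1 of its genes was called, higher, with glucose in Pcbp2βKO cells. Of the Schwann cell markers, Sox10, Gfap, S100b and Cdh19 were under 1 CPM in every sample. All 5 acinar and all 4 stellate cell markers were under 1 CPM throughout, led by Cela2a and Col1a2, and of 4 endothelial markers Pecam1 alone passed that level, at up to 1.02. The 4 ductal markers, led by Krt7 at 339 to 557 CPM, averaged 502, 741, 512 and 494. Of the others, Krt19 and Sox9 reached at most 2.17 and 1.07 CPM, while Spp1 reached 799 in control replicate 2 at 16.7 mM. The 5 macrophage markers, led by Lyz2 at 0.394 to 134 CPM, averaged 40.1, 8.57, 104 and 6.12, and all 5 were called lower with glucose in Pcbp2βKO cells and 1 in control cells. In sorted bulk RNA, fewer cells that express a gene and less RNA of that gene per cell cannot be told apart. The part of α, δ, pancreatic polypeptide or macrophage RNA in the results was not tested.

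In TPM averaged over the 17 samples, the order of levels was Ntrk2 at 36.6, Ncam1 at 16.4, Cadm1 at 8.76, Cttnbp2 at 6.04, Lrrtm2 at 1.13, Syndig1 at 0.542, Kirrel3 at 0.522, Kirrel2 at 0.190 and Nlgn2 at 0.133. Ntrk2 was at rank 1984 and Nlgn2 at rank 17558 of the 22784 genes tested. Neighbours in this order did not stand clear of each other in every group. In control samples at 2.8 mM, for example, Cttnbp2 averaged 12.1 TPM (SD 4.61, n = 3) and Cadm1 6.33 (SD 0.969, n = 3), the reverse of their overall order, whereas in Pcbp2βKO samples at 2.8 mM Cadm1 averaged 15.6 (SD 3.50, n = 5) and Cttnbp2 3.25 (SD 0.870, n = 5). Kirrel2 and Nlgn2 overlapped in TPM in every group. The overall means of Syndig1 and Kirrel3 describe no group. In control samples at 2.8 mM they averaged 1.84 (SD 1.22, n = 3) and 1.17 (SD 0.348, n = 3), above Lrrtm2 at 0.910 (SD 0.476, n = 3). In Pcbp2βKO samples at 2.8 mM they averaged 0.0203 (SD 0.0249, n = 5) and 0.0517 (SD 0.0209, n = 5) and at 16.7 mM 0 and 0.0248 (SD 0.0317, n = 5), below Kirrel2 and Nlgn2.

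**Figure D1:**
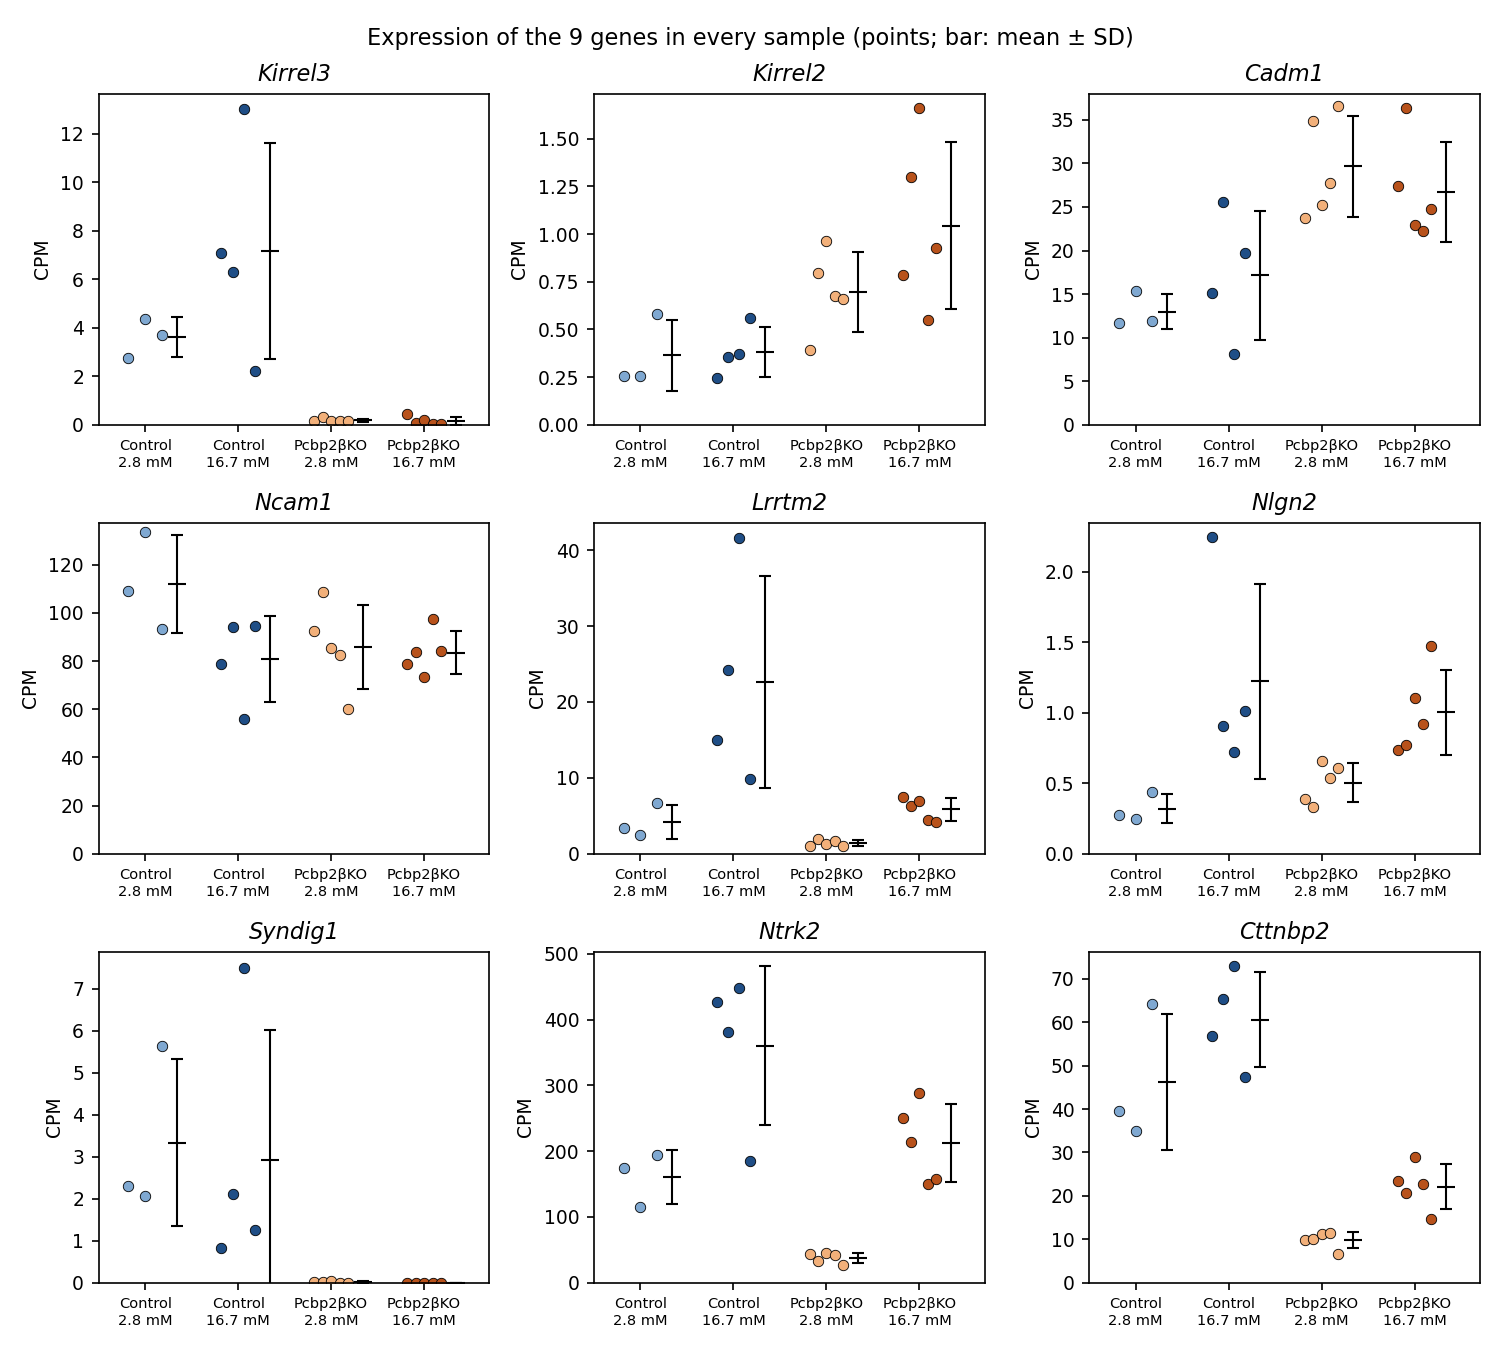
Level of each of the 9 genes in CPM (y axis, linear, from 0) in every sample of the 4 groups (x axis). Points are samples, and the bar beside each group is the mean ± SD (n = 3, 4, 5 and 5). Kirrel3 and Syndig1 lie near 0 in all 10 Pcbp2βKO samples, and Cttnbp2 is lower in every Pcbp2βKO sample than in any control sample.

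Kirrel3 and Kirrel2 are nephrin-like adhesion molecules with immunoglobulin domains, which act at cell contacts. Their family is known for sorting of axons and for the filtration barrier of the kidney. Kirrel3 had 2.74, 4.37 and 3.71 CPM in control samples at 2.8 mM, 7.10, 6.29, 13.003 and 2.23 in control samples at 16.7 mM, 0.156, 0.305, 0.138, 0.156 and 0.140 in Pcbp2βKO samples at 2.8 mM, and 0.428, 0.0642, 0.185, 0.0134 and 0.0257 in Pcbp2βKO samples at 16.7 mM. The lowest control sample, replicate 4 at 16.7 mM, was above the highest Pcbp2βKO sample, so control and knockout did not overlap at either concentration. Between knockout and control the log2 fold change was −4.32 (SE 0.66) at 2.8 mM and −5.68 (SE 0.69) at 16.7 mM, both called. Without the 3 libraries apart it was −4.31 and −5.28, both called, and at 16.7 mM it was −6.64 without Pcbp2βKO replicate 1, the highest of its group. Glucose made no called difference to Kirrel3 in control cells (0.99, SE 0.66) or in Pcbp2βKO cells (−0.37, SE 0.64, −1.34 without replicate 1 at 16.7 mM and 0.29 without the 3 libraries apart). Kirrel3 passed the filter level of 0.136 CPM in 2 of the 5 Pcbp2βKO samples at 16.7 mM and in all other samples.

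The gene spans 553.8 kb at chr9:34397190-34951024 (GRCm39, forward strand), longer than 99.3% of the 22576 tested genes with a position. On its reverse strand lies Kirrel3os, a long noncoding RNA at chr9:34829529-34840805 that shares 0 exon bases with it. Kirrel3os was singled out after its values had been seen. Its levels were 2.50, 1.66 and 6.09 CPM in control samples at 2.8 mM, 6.97, 11.8, 15.6 and 3.21 in control samples at 16.7 mM, 0.279, 0.223, 0.180, 0.121 and 0.260 in Pcbp2βKO samples at 2.8 mM, and 0.804, 0.963, 1.42, 0.844 and 0.398 in Pcbp2βKO samples at 16.7 mM. As with Kirrel3, every control sample was above every Pcbp2βKO sample. The log2 fold change of Kirrel3os was −3.98 (SE 0.50) at 2.8 mM and −3.41 (SE 0.46) at 16.7 mM, both called. At 2.8 mM it was −3.27 without control replicate 3, still called. In Pcbp2βKO cells Kirrel3os, unlike Kirrel3, was called higher at 16.7 mM than at 2.8 mM (2.03, SE 0.46), with no overlap of the groups. Whether the counting used strand is not stated, so intronic reads of Kirrel3 and reads of Kirrel3os cannot be told apart where an annotated Kirrel3os exon lies in a Kirrel3 intron.

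**Figure D2:**
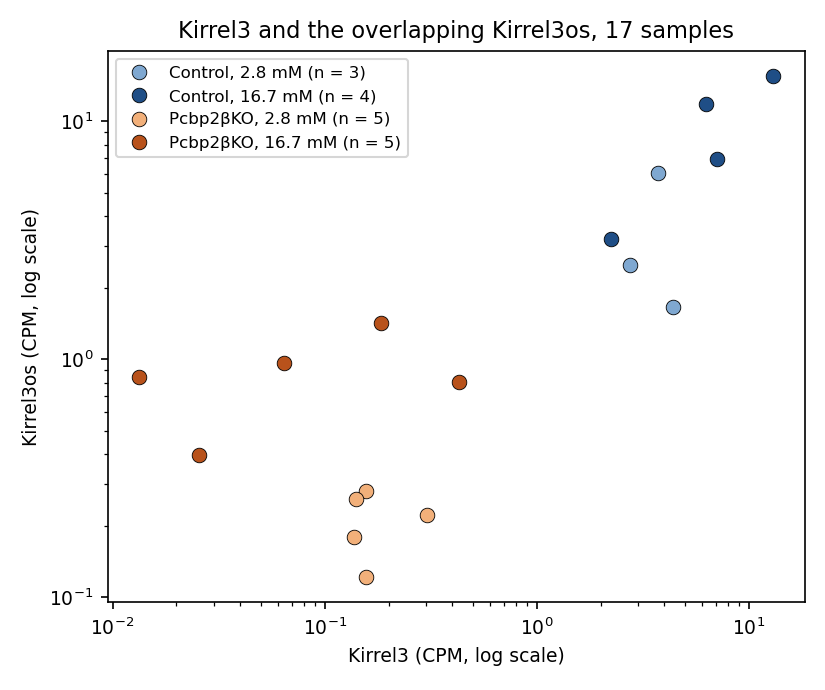
Level of Kirrel3 (x axis, CPM, log scale) against Kirrel3os (y axis, CPM, log scale) in the 17 samples, coloured by group. The 7 control samples lie above 2.2 CPM of Kirrel3, and the 10 Pcbp2βKO samples lie below 0.43 CPM.

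Kirrel2 had 0.255, 0.258 and 0.580 CPM in control samples at 2.8 mM, 0.245, 0.356, 0.370 and 0.557 in control samples at 16.7 mM, 0.391, 0.798, 0.965, 0.676 and 0.659 in Pcbp2βKO samples at 2.8 mM, and 0.787, 1.30, 1.66, 0.549 and 0.925 in Pcbp2βKO samples at 16.7 mM. The groups overlapped at both concentrations. At 16.7 mM, however, the overlap came from control replicate 4 (0.557) and Pcbp2βKO replicate 4 (0.549) alone. Its log2 fold change there was 1.44 (SE 0.40) and was not called. It was called without control replicate 4 (1.67), without Pcbp2βKO replicate 4 (1.60) and without the 3 libraries apart (1.94), and also with DESeq2 (1.43), which calls more genes than edgeR here, and with the replicate number as a block (1.41). The other comparisons, the knockout at 2.8 mM (0.93, SE 0.43) and glucose in control (0.07, SE 0.44, and −0.29 with total-count scaling) and Pcbp2βKO cells (0.58, SE 0.35), were not called. In the deposited TPM Kirrel2 was lower at 16.7 mM in Pcbp2βKO samples. It averaged 0.290 (SD 0.116, n = 5) at 2.8 mM and 0.180 (SD 0.0780, n = 5) at 16.7 mM, with overlap. The paralog Kirrel1, listed as Kirrel, was under 0.5 CPM in every sample, and neither it nor their binding partner Nphs1 was called in a knockout comparison by edgeR.

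Cadm1 (SynCAM 1) is an immunoglobulin adhesion molecule that binds itself and its relatives across the cleft and promotes synapse formation. Its levels were 11.7, 15.3 and 11.9 CPM in control samples at 2.8 mM, 15.1, 25.6, 8.13 and 19.7 in control samples at 16.7 mM, 23.8, 34.9, 25.3, 27.8 and 36.6 in Pcbp2βKO samples at 2.8 mM, and 27.4, 36.4, 22.9, 22.2 and 24.8 in Pcbp2βKO samples at 16.7 mM. It was the 1 gene of the 9 called higher in the knockout. At 2.8 mM the groups did not overlap and the log2 fold change was 1.19 (SE 0.28, called). At 16.7 mM control replicate 2 lay inside the knockout's range, and the log2 fold change was 0.64 (SE 0.25, not called). The call at 2.8 mM was lost without control replicate 1 (1.12), 2 (1.33) or 3 (1.13) at 2.8 mM and without Pcbp2βKO replicate 2 (1.13) or 5 (1.10) at 2.8 mM. Glucose made no called difference in control cells (0.40, SE 0.28) or in Pcbp2βKO cells (−0.15, SE 0.23), where total-count scaling alone gave a call (−0.63). In the deposited TPM, Pcbp2βKO samples averaged 15.6 (SD 3.50, n = 5) at 2.8 mM and 6.77 (SD 1.70, n = 5) at 16.7 mM, without overlap. Of its relatives, Cadm2 and Cadm4 were not called in a knockout comparison by edgeR, and Cadm3 was below the filter on low counts.

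Ncam1 (NCAM), an adhesion molecule that binds itself on neighbouring cells, had 109, 134 and 93.1 CPM in control samples at 2.8 mM, 78.8, 94.1, 56.1 and 94.4 in control samples at 16.7 mM, 92.4, 109, 85.2, 82.6 and 60.1 in Pcbp2βKO samples at 2.8 mM, and 78.6, 83.8, 73.3, 97.3 and 84.0 in Pcbp2βKO samples at 16.7 mM. The groups overlapped in all 4 comparisons, and no call was made. For the knockout the log2 fold change was −0.38 (SE 0.19) at 2.8 mM and 0.04 (SE 0.17) at 16.7 mM. Between glucose concentrations it was −0.47 (SE 0.20) in control cells, called only with total-count scaling (−0.84), and −0.04 (SE 0.16) in Pcbp2βKO cells. In the deposited TPM Ncam1 was lower at 16.7 mM, at 26.3 (SD 6.32, n = 3) and 10.9 (SD 2.96, n = 4) in control samples, without overlap, and 21.5 (SD 5.71, n = 5) and 9.83 (SD 2.37, n = 5) in Pcbp2βKO samples, with overlap. Its paralog Ncam2 was called lower at 16.7 mM than at 2.8 mM in Pcbp2βKO cells (log2 fold change −1.33, SE 0.45, edgeR adjusted p 0.0342), though the groups of 5 overlapped. That call was lost without any 1 of Pcbp2βKO replicates 2, 4 and 5 at 2.8 mM or 1, 2 and 3 at 16.7 mM, with values from −1.31 to −1.13. Replicate 4 at 16.7 mM, a library that stood apart, had the highest level of its group, and the value was −1.89 without it and −2.30 without the 3 libraries apart, both called.

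Lrrtm2 and Nlgn2 are postsynaptic ligands of neurexins. Lrrtm2, with leucine-rich repeats, is known at excitatory synapses, and neuroligin 2 at inhibitory ones. Lrrtm2 had 3.45, 2.46 and 6.71 CPM in control samples at 2.8 mM, 15.0, 24.2, 41.6 and 9.83 in control samples at 16.7 mM, 1.07, 1.94, 1.26, 1.65 and 1.08 in Pcbp2βKO samples at 2.8 mM, and 7.49, 6.23, 6.94, 4.42 and 4.18 in Pcbp2βKO samples at 16.7 mM. High glucose stood above low glucose in every sample of each genotype, and control above knockout at each concentration. In control cells replicate 3 was the highest at both concentrations. The log2 fold change with glucose was 2.43 (SE 0.45) in control cells and 2.07 (SE 0.36) in Pcbp2βKO cells, both called, and the difference between them was −0.36 (SE 0.54, not called).

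The knockout's log2 fold change for Lrrtm2 was −1.95 (SE 0.36) at 16.7 mM and −1.59 (SE 0.39) at 2.8 mM, both called. At 16.7 mM it was called in all 23 alternatives. At 2.8 mM the call was lost in 10 of them: with total-count scaling (−1.49), with the replicate block (−1.24), and without control replicate 1 (−1.72) or 3 (−1.08) at 2.8 mM, control replicate 2 at 16.7 mM (−1.59), Pcbp2βKO replicate 1 (−1.51), 3 (−1.56), 4 (−1.65) or 5 (−1.51) at 2.8 mM, or Pcbp2βKO replicate 2 at 16.7 mM (−1.59). Lrrtm2 lies within Ctnna1 on the opposite strand, with 138 exon bases in common. Ctnna1 had 87.6 to 131 CPM over the 17 samples, and its log2 fold change was −0.12 (SE 0.12, edgeR adjusted p 0.780) at 16.7 mM and −0.12 (SE 0.13, edgeR adjusted p 0.762) at 2.8 mM. Reads from the shared bases cannot be assigned to 1 of the 2 genes.

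Nlgn2 had 0.278, 0.245 and 0.438 CPM in control samples at 2.8 mM, 2.25, 0.908, 0.722 and 1.01 in control samples at 16.7 mM, 0.391, 0.328, 0.657, 0.538 and 0.609 in Pcbp2βKO samples at 2.8 mM, and 0.736, 0.771, 1.11, 0.924 and 1.48 in Pcbp2βKO samples at 16.7 mM. High and low glucose did not overlap in either genotype, while the genotypes overlapped at both concentrations. With glucose the log2 fold change was 1.92 (SE 0.43) in control cells and 0.99 (SE 0.34) in Pcbp2βKO cells, both called, with a difference of −0.93 (SE 0.53, not called). In Pcbp2βKO cells the call was lost without replicate 1 (0.91), 2 (0.87) or 4 (1.01) at 2.8 mM, without replicate 3 (0.95) or 5 (0.81) at 16.7 mM, without the 3 libraries apart (0.75), with total-count scaling (0.52) and with no filter on low counts (0.97). In the deposited TPM the groups averaged 0.107 (SD 0.104, n = 3), 0.125 (SD 0.0516, n = 4), 0.135 (SD 0.0856, n = 5) and 0.151 (SD 0.104, n = 5) in the order above, and high and low glucose overlapped in both genotypes. The knockout's log2 fold change was 0.65 (SE 0.40) at 2.8 mM and −0.28 (SE 0.35) at 16.7 mM, neither called.

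Among the relatives and partners of these genes, Lrrtm4 was called higher with glucose in Pcbp2βKO cells (1.13, SE 0.41, edgeR adjusted p 0.0441). That call was lost in 11 of 23 alternatives: with total-count scaling (0.64), with no filter on low counts (1.11), without the 3 libraries apart (1.22), and without any 1 of Pcbp2βKO replicates 1, 3, 4 and 5 at 2.8 mM and 1, 2, 3 and 4 at 16.7 mM, with values from 0.99 to 1.20. Lrrtm1, Lrrtm3, Lrrtm4, Nlgn1, Nlgn3, Nrxn2 and Nrxn3 were not called in a knockout comparison by edgeR.

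Syndig1 encodes a membrane protein that associates with AMPA-type glutamate receptors and promotes the development of excitatory synapses. It had 2.30, 2.08 and 5.65 CPM in control samples at 2.8 mM and 0.838, 2.12, 7.51 and 1.25 in control samples at 16.7 mM. In Pcbp2βKO samples at 2.8 mM the estimated counts were 2, 1, 5, 0 and 0, which is 8 counts in all, and all 5 Pcbp2βKO samples at 16.7 mM were at 0 counts. Both knockout comparisons were called, with no overlap of the groups, and stayed called in all 23 alternatives. A fitted fold change is no bound here, because it depends on the prior count. Against a floor of 3 counts in each library, 0.0385 to 0.0513 CPM, Syndig1 was at least 65.2-fold lower in the knockout at 16.7 mM, a bound that control replicate 3 carries and that is 31.2-fold without it. At 2.8 mM the ratio of control to knockout was 178, with a 95% Poisson interval of 90.5 to 413 that covers counting error only. It was 117 without control replicate 3 at 2.8 mM and 370 without Pcbp2βKO replicate 3, which held 5 of the 8 counts.

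Syndig1 passed the filter on low counts through the control samples, with 0 of 10 Pcbp2βKO samples above the filter level, so it had to differ. In control cells the groups overlapped between glucose concentrations (log2 fold change −0.19, SE 0.71, not called), and its sign depended on the samples used: leaving out the high replicate 3 gave −1.25 when it was the one at 16.7 mM and 0.42 when it was the one at 2.8 mM, and no fold change with glucose can be given in Pcbp2βKO cells. The paralog Syndig1l averaged 51.5, 82.6, 30.0 and 69.9 CPM in the order control 2.8 mM, control 16.7 mM, Pcbp2βKO 2.8 mM and Pcbp2βKO 16.7 mM, with SDs of 35.1, 59.5, 14.8 and 16.6. It was not called in the knockout at 2.8 mM (−0.78, SE 0.52, edgeR adjusted p 0.583) or at 16.7 mM (−0.24, SE 0.48, edgeR adjusted p 0.909). The reverse strand at the start of Syndig1 holds a noncoding gene, C530025M09Rik, with 1301 exon bases in common and at most 0.196 CPM in any sample.

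Ntrk2 encodes TrkB, the receptor tyrosine kinase for brain-derived neurotrophic factor. Full-length TrkB carries the kinase, and truncated forms end shortly after the membrane. Ntrk2 had 174, 115 and 194 CPM in control samples at 2.8 mM, 427, 381, 449 and 185 in control samples at 16.7 mM, 43.1, 33.2, 44.8, 42.8 and 26.7 in Pcbp2βKO samples at 2.8 mM, and 251, 214, 288, 150 and 158 in Pcbp2βKO samples at 16.7 mM. At 2.8 mM every control sample was above every Pcbp2βKO sample. At 16.7 mM control replicate 4, a library that stood apart, lay below 3 of the 5 Pcbp2βKO samples, and the other 3 control samples lay above all of them.

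The knockout's log2 fold change for Ntrk2 was −2.08 (SE 0.27, called) at 2.8 mM and −0.77 (SE 0.25, not called) at 16.7 mM. Without control replicate 4 the latter was −0.996 and called, and without the 3 libraries apart it was −0.74 and not called. High glucose raised Ntrk2 by 1.16 on the log2 scale (SE 0.30, called) in control cells and by 2.48 (SE 0.25, called) in Pcbp2βKO cells. In control cells the glucose groups overlapped, since control replicate 4 at 16.7 mM was below replicate 3 at 2.8 mM, and the call was lost without replicate 2 at 2.8 mM (0.97). The difference between the glucose effects was 1.32 (SE 0.37), and it was not called.

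By transcript, Ntrk2-204 made up 64.9% of the gene's TPM, Ntrk2-205 21.7% and Ntrk2-202 8.51%, averaged over the 17 samples. These 3 transcripts encode the short receptor without the kinase, and together they held 96.6% (SD 0.635, n = 3) in control samples at 2.8 mM, 96.9% (SD 0.664, n = 4) in control samples at 16.7 mM, 92.6% (SD 2.47, n = 5) in Pcbp2βKO samples at 2.8 mM and 95.2% (SD 1.59, n = 5) in Pcbp2βKO samples at 16.7 mM. The 2 full-length transcripts, which encode 821 codons, held 2.22%, 1.76%, 3.06% and 2.42% in the same order, between 1.38% and 4.04% in single samples. The Ntrk2 RNA counted in these cells was thus mostly that of the short receptor in all 4 groups. The ligand gene Bdnf averaged 2.29, 2.56, 2.09 and 2.74 CPM, the related receptor gene Ntrk3 averaged 1.05, 1.59, 1.17 and 2.04, and neither was called in a knockout comparison by edgeR. Ntf5, another ligand gene of the receptor, was below the filter on low counts.

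Cttnbp2 encodes a scaffold that binds cortactin and microtubules and helps maintain dendritic spines. It had 39.6, 34.8 and 64.1 CPM in control samples at 2.8 mM, 56.8, 65.2, 73.0 and 47.4 in control samples at 16.7 mM, 9.93, 10.03, 11.2, 11.5 and 6.60 in Pcbp2βKO samples at 2.8 mM, and 23.5, 20.6, 28.9, 22.7 and 14.7 in Pcbp2βKO samples at 16.7 mM. All 10 Pcbp2βKO samples were below all 7 control samples, and within the knockout all samples at 16.7 mM were above all samples at 2.8 mM. The knockout's log2 fold change was −2.23 (SE 0.23) at 2.8 mM and −1.46 (SE 0.21) at 16.7 mM, both called in all 23 alternatives. High glucose made no called difference in control cells, where the groups overlapped (0.39, SE 0.24, and −0.02 with total-count scaling), and a called one in Pcbp2βKO cells (1.17, SE 0.20). The difference between these was 0.78 (SE 0.31, not called). Within the 3 same-numbered pairs of control samples, Cttnbp2 was higher in CPM at 16.7 mM in each. In the deposited TPM it was lower at 16.7 mM in each, at 6.02 against 9.71, 8.31 against 9.15 and 11.2 against 17.4. In Pcbp2βKO cells the glucose call of Cttnbp2 held in all 23 alternatives, total-count scaling among them, with values from 0.67 to 1.28. In the deposited TPM, however, Cttnbp2 did not rise with glucose, and the reason was not tested. It averaged 12.1 (SD 4.61, n = 3) and 8.68 (SD 2.14, n = 4) in control samples at 2.8 mM and 16.7 mM. In Pcbp2βKO samples it averaged 3.25 (SD 0.870, n = 5) and 3.10 (SD 0.766, n = 5), and the glucose groups overlapped in both genotypes. Cttn, which encodes cortactin, averaged 92.6, 114, 92.7 and 115 CPM, and its log2 fold change in the knockout was 0.00 (SE 0.11, edgeR adjusted p 0.997) at 2.8 mM and 0.02 (SE 0.10, edgeR adjusted p 0.977) at 16.7 mM. The paralog Cttnbp2nl was not called in either knockout comparison.

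Much of the Cttnbp2 signal was in transcripts annotated as retained introns. These 3 transcripts held 61.9% (SD 5.68, n = 3), 59.3% (SD 1.32, n = 4), 62.6% (SD 3.17, n = 5) and 61.2% (SD 5.45, n = 5) of its TPM in control samples at 2.8 mM, control samples at 16.7 mM, Pcbp2βKO samples at 2.8 mM and Pcbp2βKO samples at 16.7 mM. The summed share was much the same in all groups, but single transcripts differed. Cttnbp2-204 held 15.5% (SD 5.45, n = 4) in control samples at 16.7 mM and 30.1% (SD 4.601, n = 5) in Pcbp2βKO samples at 2.8 mM, while Cttnbp2-203 held 35.1% (SD 4.43, n = 4) and 27.9% (SD 5.74, n = 5) in these groups. For Lrrtm2 the retained-intron share was 46.7% (SD 10.1, n = 3), 42.5% (SD 0.924, n = 4), 40.4% (SD 17.8, n = 5) and 35.5% (SD 10.1, n = 5). For Cadm1 a noncoding processed transcript, Cadm1-208, held 49.5% (SD 7.69, n = 3), 24.1% (SD 18.1, n = 4), 38.3% (SD 10.7, n = 5) and 43.7% (SD 6.87, n = 5), lowest in control samples at 16.7 mM. TPM give short transcripts more weight than counts do. Of the estimated counts Cadm1-208 held 17.7% on average, and Cadm1-203 led with 51.3%. Cttnbp2-204 held 22.7% of TPM but 2.56% of counts, and Cttnbp2-203 35.6% of counts. Lrrtm2-202, the retained-intron transcript, held 40.6% of TPM and 26.2% of counts. The leading transcripts of the others by mean share were Ncam1-204 (54.1%), Syndig1-202 (81.1%, with no value in Pcbp2βKO samples at 16.7 mM) and Kirrel3-208 (36.1%, from 52.1%, 46.0%, 54.7% and 0% in the 4 groups), while 1 coding transcript each held 79.0% for Nlgn2 and 72.8% for Kirrel2. The leading transcript by TPM differed between groups for Kirrel3, Cadm1 and Cttnbp2. Shares rest on little data for Nlgn2 and Kirrel2 in all groups and for Kirrel3 and Syndig1 in the knockout.

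**Figure D3:**
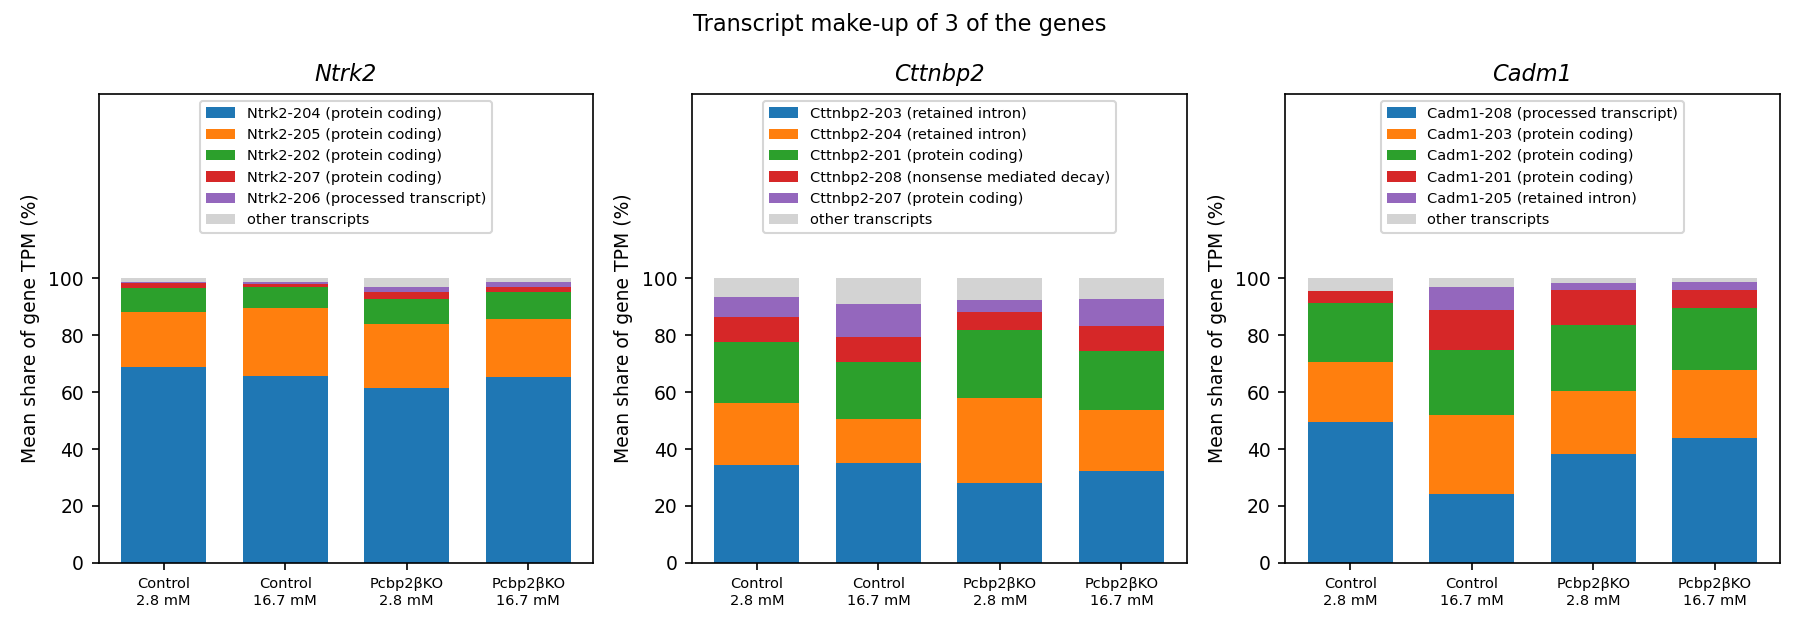
Mean share of the gene's TPM (y axis, %) held by each of the leading transcripts of Ntrk2, Cttnbp2 and Cadm1 in the 4 groups (x axis, n = 3, 4, 5 and 5), with annotated type in the key and all others in grey. Ntrk2-204 leads in every group, and retained-intron transcripts make up over 59% of Cttnbp2 in each.

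Counted together, at 16.7 mM the knockout had 4 of the 9 called lower (Kirrel3, Lrrtm2, Syndig1 and Cttnbp2) and 0 higher, beside 1.71% of all genes tested called and 1.42% called lower. The same 4 genes were without overlap of the groups, beside 4.49% of all genes. In the knockout at 2.8 mM, 5 were called lower (the same 4 and Ntrk2) and Cadm1 was called higher, beside 2.04% of all genes called, 1.78% called lower and 0.255% called higher. These 6 genes had no overlap of the groups, beside 10.9% of all genes. Since these contrasts chose the genes, nothing is read from the shares. Syndig1 passed the filter through the control samples alone and had to differ, so its calls and its lack of overlap add nothing to these counts. With glucose in control cells, 3 were called, all higher (Lrrtm2, Nlgn2 and Ntrk2), beside 13.8% of all genes called and 7.15% called higher, and 2 had no overlap, beside 24.1%. With glucose in Pcbp2βKO cells, 4 were called, all higher (Lrrtm2, Nlgn2, Ntrk2 and Cttnbp2), beside 23.8% of all genes called and 13.4% called higher, and 4 had no overlap, beside 21.6%.

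The replicate numbers paired the control samples at the 2 concentrations, and with that number as a block the same 3 genes were called with glucose in control cells, while the count over all genes went from 3153 to 4775. Of the genes not called there, Kirrel3 and Cttnbp2 were higher in CPM at 16.7 mM in all 3 pairs, and Ncam1 was lower in all 3. In the deposited TPM, Cttnbp2 and Ncam1 were lower at 16.7 mM in all 3 pairs. Kirrel3 was lower there in replicate 2 (1.11 TPM against 1.45 at 2.8 mM) and higher in replicates 1 and 3. Without the 3 libraries apart, 5 of the 9 were called in the knockout at 16.7 mM, beside 2.63% of all genes, with Kirrel2 (1.94) added. With glucose in Pcbp2βKO cells 3 were called, beside 28.6% of all genes, with Nlgn2 (0.75) lost. In the knockout at 2.8 mM the count was again 6, beside 3.00%, and with glucose in control cells again 3, beside 21.9%. For the difference between genotypes in the glucose effect, edgeR called 0 of the 9, beside 0.00439% of all genes, which is 1 gene. Ins1 is that gene, named after its value was seen (2.78, and 2.56 without control replicate 3 at 2.8 mM, where it was not called). At an unadjusted p under 0.05 there were 2 of the 9, beside 4.57% of all genes, and 1 without control replicate 3 at 2.8 mM or 4 at 16.7 mM. It was 5 of the 9 with the replicate block, beside 6.75% of all genes, and 3 with no filter on low counts, without control replicate 3 at 16.7 mM or without Pcbp2βKO replicate 1 at 16.7 mM. In these settings the share of all genes was 4.16% to 6.75%. Since the 9 genes were chosen by their differences in these same samples, nothing is read from these counts. DESeq2 also called 0. For the difference in the glucose effect, edgeR recovered 21% of simulated differences of 1 on the log2 scale and 77% of those of 2. The lack of calls therefore does not show that the glucose effects were equal. The comparisons share groups, so their counts are not independent of each other.

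The median log2 fold change of the 9 genes was −1.59 in the knockout at 2.8 mM and −0.77 at 16.7 mM, with Syndig1 at its ratio or bound as well as at its fitted value, against 0.03 and 0.01 over all genes. For the other 8 it was −0.99 and −0.52. With glucose in control cells the median was 0.40, against 0.04 over all genes, and 0.69 for the other 8. In Pcbp2βKO cells no fold change of Syndig1 with glucose can be given. The median of the other 8 there was 0.79, against 0.01 over all genes. Scaling by total counts alone moved the median of all genes to −0.35 with glucose in control cells, −0.47 with glucose in Pcbp2βKO cells and 0.15 in the knockout at 2.8 mM, so changes with glucose hold relative to the TMM scale.

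**Figure D4:**
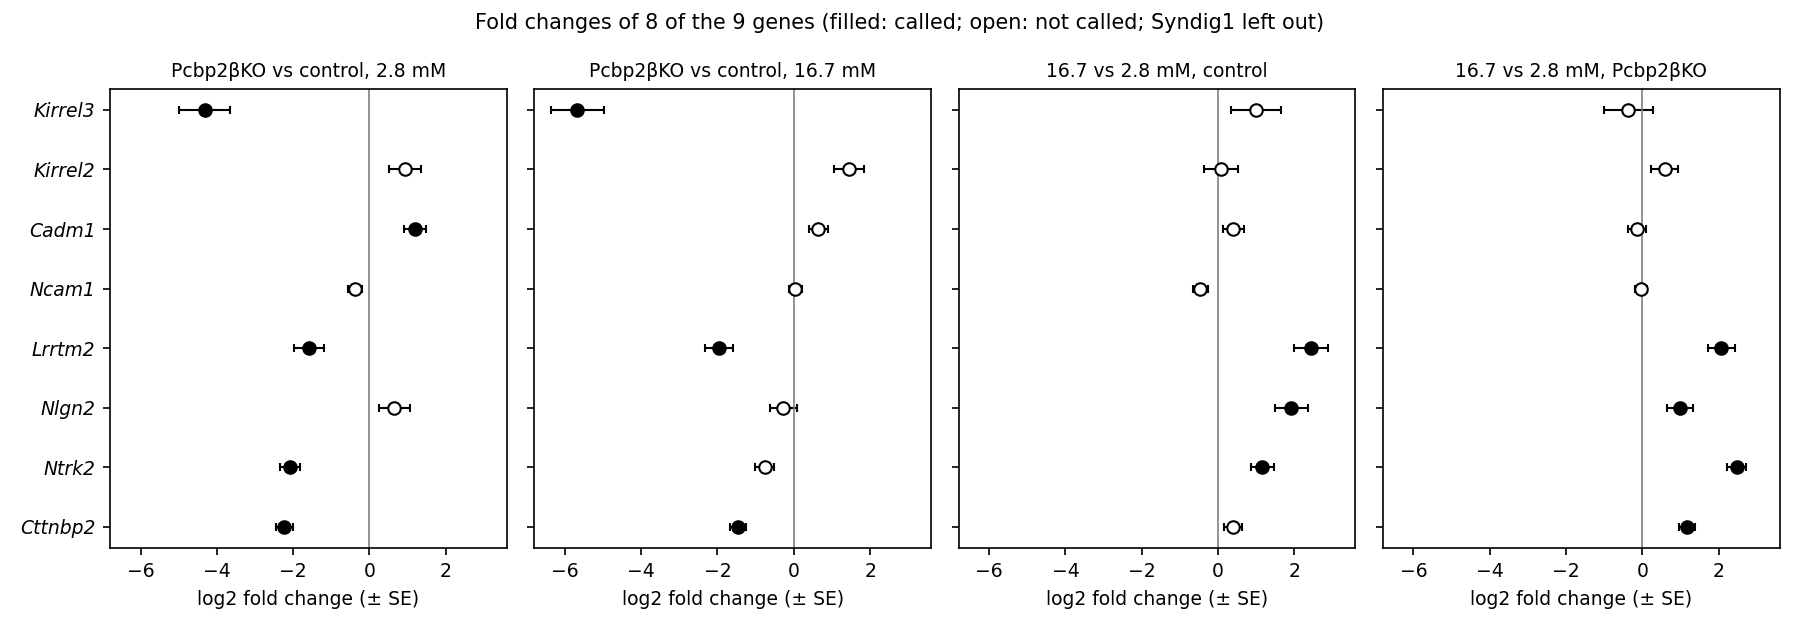
Log2 fold change (x axis) with its standard error of 8 of the 9 genes (y axis) in the 4 comparisons, filled where called and open where not. Syndig1 is left out because it was at or near 0 counts in the knockout. Kirrel3 lies farthest to the left in both knockout panels, at −4.32 and −5.68.

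The other genes of synaptic adhesion and scaffolding were taken from 9 lists that hold the nephrin-like molecules, neurexins and their organisers, neuroligins, leucine-rich repeat proteins, immunoglobulin molecules, cadherins with teneurins and calsyntenins, auxiliary proteins of AMPA receptors, neurotrophins with their receptors, and scaffolds. Without the 9 genes they held 132 genes, of which 110 were tested. In the knockout at 16.7 mM, 0 were called higher and 3 lower by edgeR, with a median log2 fold change of 0.08. In the knockout at 2.8 mM, 0 were called higher and 3 lower, with a median of 0.04. These are 2.73% of the 110 in each comparison, beside 1.71% and 2.04% of all genes. Ngfr, described below, is 1 of the 3 in each. It passed the filter on low counts through the control samples alone, so it had to differ. With glucose 9 were called higher and 4 lower in control cells (median 0.12), which turned to 4 higher and 11 lower with total-count scaling and to 10 higher and 14 lower without the 3 libraries apart. In Pcbp2βKO cells 19 were called higher and 6 lower (median 0.13), which turned to 6 higher and 25 lower with total-count scaling and was 21 higher and 14 lower without the 3 libraries apart. The direction of these glucose counts thus depends on the scaling and the samples, and their shares, 11.8% and 22.7%, were near the 13.8% and 23.8% of all genes. The count with glucose in control cells was 7 without control replicate 1 or 2 at 2.8 mM and 21 (10 higher, 11 lower) without control replicate 4 at 16.7 mM. With the replicate block, which pairs the control samples, it was 12 higher and 11 lower, 20.9% beside 20.96% of all genes. For the knockout at 16.7 mM 3 were higher and 4 lower without control replicate 4 at 16.7 mM, 3 higher and 3 lower with the replicate block, and 2 higher and 3 lower without the 3 libraries apart, so the lower direction of that count does not hold. For the knockout at 2.8 mM 1 was lower without control replicate 3 at 2.8 mM, and 1 was higher and 5 lower without Pcbp2βKO replicate 2 at 2.8 mM. With the replicate block 1 was higher and 6 lower there, 6.36% beside 2.62% of all genes, and without the 3 libraries apart 0 were higher and 5 lower. For the difference in the glucose effect 0 were called by edgeR, with 5 at an unadjusted p under 0.05, and DESeq2 called 0. These 5 are 4.55% of the 110, beside 4.57% of all genes. They were 2 without control replicate 2 at 16.7 mM, 3 without Pcbp2βKO replicate 3 at 16.7 mM and 8 without replicate 4 of either genotype at 16.7 mM. With the replicate block they were 9, 8.18% beside 6.75% of all genes, with no filter on low counts 8, 6.15% beside 5.75%, and without the 3 libraries apart 10, 9.09% beside 6.61%.

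By family, the called genes other than the 9 in the knockout at 16.7 mM were 2 of 18 tested immunoglobulin molecules and 1 of 6 neurotrophin genes. At 2.8 mM they were 1 of 18 immunoglobulin molecules, 1 of 9 neurexins and organisers, and 1 of 6 neurotrophin genes. The neurotrophin gene in both comparisons was Ngfr, which entered through the control samples alone and so had to differ. In the other lists, with 2 nephrin-like molecules, 4 neuroligin-related genes, 13 leucine-rich repeat proteins, 15 cadherin-type molecules, 8 AMPA receptor auxiliary genes and 35 scaffolds tested, edgeR called 0 in either. With glucose in Pcbp2βKO cells the cadherin-type list had 6 called higher and 1 lower of 15, the scaffolds 5 higher and 0 lower of 35, and the leucine-rich repeat proteins 3 higher and 0 lower of 13. The neurexin list had 2 higher and 0 lower, the immunoglobulin list 2 higher and 3 lower, the AMPA receptor list 1 higher and 1 lower, the neurotrophin list 0 higher and 1 lower, and the nephrin-like and neuroligin lists 0. With glucose in control cells there were 3 higher and 1 lower of the cadherin type, 2 and 1 of the scaffolds, 2 and 1 of the immunoglobulin molecules, 1 and 1 of the neurexin list, 1 and 0 of the AMPA receptor list, and 0 of the other 4 lists. Of all genes, 23.8% were called with glucose in Pcbp2βKO cells (13.4% higher) and 13.8% in control cells (7.15% higher). For the lists together the direction of these glucose counts depended on the scaling, as given above.

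Cntn3, a contactin of the immunoglobulin family, was called lower in both knockout comparisons. Its level averaged 3.50 CPM (SD 1.69, n = 3) in control and 0.835 (SD 0.246, n = 5) in Pcbp2βKO samples at 2.8 mM (log2 fold change −2.07, SE 0.34, edgeR adjusted p 0.00182), and 2.71 (SD 1.11, n = 4) and 0.676 (SD 0.141, n = 5) at 16.7 mM (−2.002, SE 0.33, edgeR adjusted p 0.00193). The groups did not overlap at either concentration, and both calls held in all 23 alternatives. Il1rap, a receptor subunit that also organises synapses, averaged 14.4 CPM (SD 4.92, n = 4) in control and 4.83 (SD 1.52, n = 5) in Pcbp2βKO samples at 16.7 mM (−1.58, SE 0.27, edgeR adjusted p 0.00303). It was not called at 2.8 mM (−0.64, SE 0.29, edgeR adjusted p 0.359).

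Ptprd, a receptor phosphatase that binds postsynaptic organisers, averaged 19.4 CPM (SD 4.94, n = 3) in control and 6.02 (SD 2.01, n = 5) in Pcbp2βKO samples at 2.8 mM (−1.69, SE 0.33, edgeR adjusted p 0.00722, and −1.48 and not called without control replicate 3 at 2.8 mM). It was not called at 16.7 mM (−0.57, SE 0.31, edgeR adjusted p 0.507), where control samples averaged 6.85 CPM (SD 2.38, n = 4). Ngfr, the neurotrophin receptor p75, was named after its values were seen. It had 0.914, 0.245 and 3.50 CPM in control samples at 2.8 mM, 0.266, 0.285, 2.22 and 0.308 at 16.7 mM, and at most 0.106 in any Pcbp2βKO sample. Replicate 3 was the highest control sample at both concentrations, as it was for Lrrtm2, Syndig1, Ntrk2 and Cttnbp2. Like Syndig1, Ngfr was above the filter level in 0 of 10 Pcbp2βKO samples and entered through the control samples alone, so it had to differ, and its fitted values depend on the prior count. At 2.8 mM the fitted log2 fold change was −5.13 (SE 0.92), called except without control replicate 3 at 2.8 mM (−3.71), and −5.77 without Pcbp2βKO replicate 2 at 2.8 mM. At 16.7 mM it was −3.47 (SE 0.86), and 13 of the 23 alternatives lost the call. They were the replicate block (−2.88), total-count scaling (−3.45), leaving out the 3 libraries apart (−3.70), and leaving out control replicate 1 at 2.8 mM or 3 at 16.7 mM, Pcbp2βKO replicate 1, 3 or 4 at 2.8 mM or any 1 of the 5 at 16.7 mM, with values from −3.69 to −2.05.

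With glucose in control cells the list genes with the largest called changes were Cntn1 (2.32, SE 0.35, edgeR adjusted p 0.000682), Clstn3 (1.78, SE 0.24, edgeR adjusted p 0.000345) and Adgrl3 (1.56, SE 0.40, edgeR adjusted p 0.0126) upward. Downward they were L1cam (−2.15, SE 0.47, edgeR adjusted p 0.00561), Ptprd (−1.50, SE 0.35, edgeR adjusted p 0.00819) and Tenm4 (−1.32, SE 0.41, edgeR adjusted p 0.0333). L1cam was at −2.78 without control replicate 4 at 16.7 mM. The call of Adgrl3 was lost without control replicate 1 at 2.8 mM (1.40). That of Tenm4 was lost without any 1 of control replicates 1, 2 and 3 at 2.8 mM or 1, 2 and 3 at 16.7 mM, with values from −1.40 to −1.16.

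Across the 17 samples, log2 CPM of Kirrel3 and Syndig1 had a Pearson r of 0.928, Lrrtm2 and Ntrk2 0.922, Cttnbp2 and Ntrk2 0.877, Cttnbp2 and Lrrtm2 0.862, and Syndig1 and Cadm1 −0.830. The points share libraries and fall into 4 groups, so most of this is the difference between groups. After the group means were taken out, the values over the 17 samples were 0.259, 0.699, 0.751, 0.745 and −0.579 in the same order. Lrrtm2, Ntrk2 and Cttnbp2 thus also moved together within groups, where control replicate 3 was the highest at both concentrations and control replicate 4 the lowest at 16.7 mM for all 3.

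The genes whose pattern was most like each of the 9, by Pearson r of log2 CPM over the 17 samples among genes with a mean of at least 5 CPM, were Sftpd, Crispld2 and Tmem130 for Kirrel3 (r 0.940, 0.938 and 0.938) and Map10, Topbp1 and Erc2 for Kirrel2 (0.792, 0.792 and 0.789). For Cadm1 they were Pgf (0.890), Ankrd40 (0.887) and Jam2 (0.873), and for Ncam1 Dse (0.868), Decr1 (0.851) and Camkk1 (0.846). For Lrrtm2 they were Prepl (0.972), Prlr (0.970) and Syn1 (0.961), and for Nlgn2 Rai1 (0.924), Ehd1 (0.892) and Leng9 (0.889). For Syndig1 they were Dipk1a (0.972), Cldn8 (0.968) and Rps13-ps1 (0.966), for Ntrk2 Ehd3 (0.975), Ggt7 (0.975) and Pstpip2 (0.974), and for Cttnbp2 Matn2 (0.971), Enpp2 (0.965) and Tph2 (0.957).

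The genes were also set beside each other by features that did not choose them. Of the 9, 6 span over 100 kb: Kirrel3 at 553.8 kb, Cadm1 at 332.1, Ntrk2 at 327.6, Ncam1 at 296.9, Syndig1 at 175.6 and Cttnbp2 at 148.4. Nlgn2, Kirrel2 and Lrrtm2 span 14.7, 10.2 and 6.07 kb, against a median of 17.2 kb over the 22576 tested genes with a position. The long and the short genes both hold genes called lower in the knockout and genes that were not. In GRCm39 coordinates, 3 of the 9 lie on chromosome 9, Kirrel3 as above, Cadm1 at chr9:47441471-47773576 on the forward strand and Ncam1 at chr9:49413436-49710357 on the reverse strand. Kirrel2 is at chr7:30146958-30157131 (reverse), Nlgn2 at chr11:69713948-69728613 (reverse), Syndig1 at chr2:149671131-149846723 (forward), Cttnbp2 at chr6:18366477-18514842 (reverse) and Ntrk2 at chr13:58954176-59281784 (forward).

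PCBP2 belongs to a family of proteins that bind runs of cytosine in single-stranded RNA, often in the 3′ untranslated region (3′-UTR). The 3′-UTR of each gene's canonical transcript was therefore searched on the sense strand for the 18-base window with the most cytosines and for the letters CCCTCCC. Over the 15463 tested genes with such a region, the median of the richest window was 11 cytosines, 12.2% of genes reached 14 or more and 25.4% held CCCTCCC. Kirrel3 and Ntrk2 reached 12, Lrrtm2 11, and Cttnbp2 and Syndig1 10, with 0 copies of CCCTCCC in each of these 5. The 4 others reached more: Ncam1 with 17 cytosines, Kirrel2 with 15, Nlgn2 with 14 and Cadm1 with 13. Nlgn2 held 3 copies of CCCTCCC and Cadm1 1. The canonical transcript is not always the one counted in these cells. It held 0.548% of the TPM of Ntrk2 and 7.93% of that of Nlgn2 on average, and for Kirrel3 it held 0% in control samples. The region searched in Cttnbp2 has 150 bases, against a median of 1362 over all genes. The windows of these genes therefore say little about the RNA measured here, and a match is a description of the letters and no evidence of binding.

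The richest windows of these 4 genes are printed to show what such a run looks like. They are read 5′ to 3′ from GRCm39 at chr9:49415847-49415864 (reverse strand), chr7:30147156-30147173 (reverse strand), chr11:69715387-69715404 (reverse strand) and chr9:47762115-47762132 (forward strand), and capitals mark CCCTCCC.
Ncam1: cccccccccccccgcccc
Kirrel2: ccacacccccccccccac
Nlgn2: ccccgctccccacccacc
Cadm1: ccCCCTCCCaaacctccc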

How the data were processed

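The authors pseudoaligned the read pairs with Kallisto to mouse transcripts (GRCm39) and deposited, for each of 17 samples and 142376 transcripts, Kallisto's estimated counts, not normalised between samples. They also deposited TPM, scaled to the same total in each sample. The study's design names a batch factor that the labels do not give, so it was not used. Estimated counts were summed per gene, rounded, filtered with edgeR's filterByExpr (22784 genes kept) and fitted as 4 group means with edgeR 4.0.16 in R 4.3.3 (TMM, quasi-likelihood test, Benjamini-Hochberg over all genes), with DESeq2 1.42.0 as an alternative. The fits were tested on simulated data, where DESeq2 made more false calls than edgeR in all 5 comparisons. DESeq2 also recovered more of the true log2 fold changes of 1 in all 5, 43% to 78% against 21% to 64% with edgeR. The simulated counts were drawn with edgeR's own estimates of the spread. Tables were made with Python 3.11.15, pandas 2.3.3, numpy 2.4.6 and scipy 1.17.1. Intervals and floors cover counting error only.

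Named genes are the 9 genes, Pcbp2, their paralogs and partners, Ctnna1, up to 3 called list genes that changed most, upward and downward (mean of at least 1 CPM), in 3 comparisons, the most abundant gene of each marker list and the 3 most correlated genes. Some genes that this rule names are not reported here. The genes and lists were chosen with earlier results of these data known. Alternatives were another tool, RLE or total-count scaling, no filter, the replicate number as a block, leaving out each library, and leaving out the 3 libraries apart. Replicate numbers paired the control samples at 2.8 mM and 16.7 mM: deviations from the group means of same-numbered samples correlated at 0.123, 0.199 and 0.258, each over 0.1. Transcript types, gene positions and 3′-UTRs come from the GENCODE annotation of GRCm39, whose release differs from that of the files.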

Additional observations from a re-analysis of the deposited data

Results flagged for a closer look

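In Pcbp2βKO samples at 2.8 mM, Kirrel3 in replicate 2 had 0.305 CPM, far from the other 4 samples at 0.138 to 0.156. Its gap to the nearest of them was 0.889 of the group's whole range. It was 1 such sample among 29 groups of 10 genes examined, and chance gives about 5% of groups such a sample. The lowest control sample at that concentration had 2.74 CPM, so the sample does not change the order of the groups, and the call of Kirrel3 held without it.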

How the results depend on the processing

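In the 23 alternatives, the count of the 9 genes called was 2 to 4 with glucose in control cells (3 as reported), 4 to 6 in the knockout at 16.7 mM (4), 4 to 6 in the knockout at 2.8 mM (6), 3 to 5 with glucose in Pcbp2βKO cells (4, and 5 only through the void call of Syndig1 below) and 0 for the difference in the glucose effect. No called fold change of a named gene changed its sign. Of the fold changes of the 9 genes under the alternatives, 1021 moved by less than the spread between replicates and 14 by more. Of those of the other named genes, 508 kept their call or lack of one and 44 lost a call. The cause was not tested where a value below moved.

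With total-count scaling, 4837 genes were called with glucose in control cells in place of 3153, and the share called higher was 16.2% in place of 51.7%. In Pcbp2βKO cells that share was 18.9% in place of 56.3%. With DESeq2, 721 genes were called in the knockout at 16.7 mM in place of 389, 835 at 2.8 mM in place of 464, and 32 for the difference in the glucose effect in place of 1. DESeq2 made more false calls than edgeR on simulated data but also recovered more of the true log2 fold changes of 1. Its higher counts may thus hold more of both. With no filter the last count was 15. Without the 3 libraries apart 4898 genes were called with glucose in control cells, 587 in the knockout at 16.7 mM, where the share called higher was 40.4% in place of 16.97%, and 2 for the difference in the glucose effect.

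With the replicate block, 4775 genes were called with glucose in control cells and 13 for the difference in the glucose effect. Among the 9 genes the block lost the call of Lrrtm2 in the knockout at 2.8 mM and added Kirrel2 in the knockout at 16.7 mM and Syndig1 with glucose in Pcbp2βKO cells, and it changed no other call of theirs. That of Syndig1 sets 8 counts in all against 0 and is void. Outside the control samples the lowest correlation of same-numbered samples was under 0.1 in each comparison, so the numbers were not taken as pairs. It was 0.0664 between Pcbp2βKO samples at the 2 concentrations, 0.0474 between genotypes at 2.8 mM and 0.0470 at 16.7 mM. In these comparisons 10 of 10, 5 of 6 and 5 of 8 samples correlated best with their own number. The 10 of 10 go with a pairing of the Pcbp2βKO samples that the main fits leave out.

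Leaving out 1 library gave 1382 to 4480 genes called with glucose in control cells, lowest without control replicate 2 at 2.8 mM and 1990 without replicate 1. It gave 213 to 652 in the knockout at 16.7 mM (without control replicates 3 and 4 at 16.7 mM), 242 to 529 in the knockout at 2.8 mM (242 without control replicate 3 at 2.8 mM), 0 to 2 for the difference in the glucose effect, and 5 to 7 genes with 1 leading transcript in the groups that had counts (6). The log2 fold change of Pcbp2 with glucose in control cells (−0.63) ranged from −0.76 to −0.50 and was not called without control replicate 1 (−0.62) or 2 (−0.50) at 2.8 mM or 1 (−0.57) or 4 (−0.57) at 16.7 mM. Depth limits Syndig1 and Kirrel3 in the knockout and Nlgn2 and Kirrel2 in all groups, which had few counts.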
